A study of Mus musculus with 4 samples.

Results

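Alveolar type II (AT2) cells without a transcript of Cldn4, a claudin that marks the state between AT2 and AT1 cells, were compared between Cdc42 AT2 null lungs 21 days after pneumonectomy (null PNX) and sham-treated Cdc42 AT2 null lungs (null sham). Cells were selected on their Sftpc share and on Cldn4 and 5 other marker genes. A cell was included when it had at least 500 detected genes, at most 20% mitochondrial transcripts and at least 2% of its transcripts from Sftpc, the surfactant protein C gene. It also had to have 0 transcripts of Cldn4, Ptprc, Pecam1, Col1a2, Mki67 and Top2a, which left out cells marked as transitional, haematopoietic, endothelial, mesenchymal or dividing. Of the transitional markers only Cldn4 was used, so cells with other such markers stayed in. These conditions and a common depth of 2500 transcripts per cell gave 748 null PNX and 2290 null sham cells, 3038 of the 5714 cells of the null libraries and of the 10077 cells of the series.

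Null mice were Cdc42flox/- and control mice were Cdc42flox/+. All mice carried Sftpc-CreER with Rosa26-mTmG and received 4 doses of tamoxifen, so that the controls too lose 1 Cdc42 allele in recombined cells. The Sftpc promoter drives Cre, so other lung cells keep their floxed Cdc42 allele, which in null mice is the only one they have. GFP+ cells were sorted. The labels give postnatal day 80 for every group without saying whether that is the day of surgery or of collection, and they state neither the number of mice in a library nor the hour of collection.

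Pneumonectomy, the removal of lung lobes, makes the remaining lobes grow, and AT2 cells supply new epithelium to the new alveoli. They do so by dividing and by flattening into AT1 cells, the thin cells of gas exchange, through a transitional state with high keratin 8. Cdc42 is a small GTPase that directs actin and cell polarity, and AT2 cells also make surfactant, secrete antimicrobial proteins and present antigen on MHC class II molecules.

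Each group was 1 library, so no difference here has a replicate check, no test between conditions was possible, and every interval covers counting error only. Levels are in CPM, that is transcripts summed over the thinned cells of a library and scaled to a common total. A gene was described when it had at least 20 CPM in either library, and it was called higher at a ratio of at least 2 and lower at a ratio of at most 0.5. A total of 3 counts corresponds to 1.60 CPM in null PNX and 0.524 CPM in null sham. Null PNX cells had more transcripts, with a median of 9743 per cell, against 5427 in null sham cells. Lymphocytes of the same libraries had medians of 3354 and 2888, and the source of the AT2 difference was not tested. Thinning set all cells to the same depth, but the 0-transcript conditions were read before it. They therefore removed cells more readily from null PNX, whose cells had more transcripts. Among cells that passed the Sftpc condition, Cldn4 removed 625 of 1488 null PNX cells (42.0%) and 52 of 2669 null sham cells (1.95%).

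The cells fitted the AT2 label by their surfactant genes, although some AT1 genes and genes of the transitional state were present. Transcripts of the transitional gene Krt8 were found in 86.6% of null PNX and 69.3% of null sham cells. Those of Krt19 were found in 63.0% and 35.7%, and those of Sfn in 39.8% and 19.2%. What part of these shares came from free RNA was not tested. With Sprr1a, Krt19, Itgb6 and Sfn also at 0, 25 null PNX and 794 null sham cells remained. Every cell of both libraries had transcripts of Sftpb and Sftpa1, and Abca3 was found in 63.4% of null PNX and 69.5% of null sham cells. The AT1 genes Pdpn and Rtkn2 had 0.535 and 0 CPM in null PNX and 0 and 0.175 CPM in null sham. The AT1 genes Ager, Aqp5, Clic5 and Hopx had 1181, 502, 43.3 and 18.7 CPM in null PNX. In null sham they had 514, 395, 61.3 and 14.7 CPM. Several defining genes of other cells were near 0, with Marco of macrophages at 0 and 0.699 CPM, Ms4a1 of B cells at 0 and 0.349 CPM and Foxj1 of ciliated cells at 0 and 2.10 CPM in null PNX and null sham. Other markers were present. The macrophage gene C1qa had 13.9 CPM in null PNX and 2.62 CPM in null sham. Tppp3, a ciliated cell gene, had 138.5 CPM in null PNX and 149 CPM in null sham, and the club cell genes Scgb1a1 and Cyp2f2 had 1818 and 44.9 CPM in null PNX against 4948 and 38.3 CPM in null sham. The neutrophil gene S100a8 had 77.5 CPM in null PNX and 65.2 CPM in null sham. Cell barcodes shared by both libraries numbered 14, of which 1 belonged to the cells compared here. In null PNX 12 cells had an Sftpc share of 2 to 2.5% and 10 cells one of 1.5 to 2%, and in null sham these numbers were 51 and 15. Krt8, a keratin of the transitional state, had 2700 CPM just inside and 3080 CPM just outside that limit in null PNX, and 980.4 and 960.0 CPM in null sham.

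Of 5420 described genes, 350 (6.46%) were higher and 237 (4.37%) were lower in null PNX than in null sham. The median gene had a log2 ratio of 0.19. Relative to that median gene, 204 (3.76%) were higher and 362 (6.68%) were lower, so the larger share lay on the higher side with one scaling and on the lower side with the other. The same cell conditions in control mice gave 1776 control PNX and 1468 control sham cells, among which 71 of 4874 described genes (1.46%) were higher and 38 (0.78%) were lower in control PNX. Relative to the median gene of that pair, 40 (0.821%) were higher and 50 (1.03%) were lower. Genes higher in both genotypes numbered 11, which is 3.14% of the null list and 15.5% of the control list. Genes lower in both numbered 9, which is 3.80% of the null list and 23.7% of the control list. The null calls covered 6.46% and 4.37% of all described genes, smaller shares than among the genes called in control mice, and no test was made of the overlap.

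**Figure D1:**
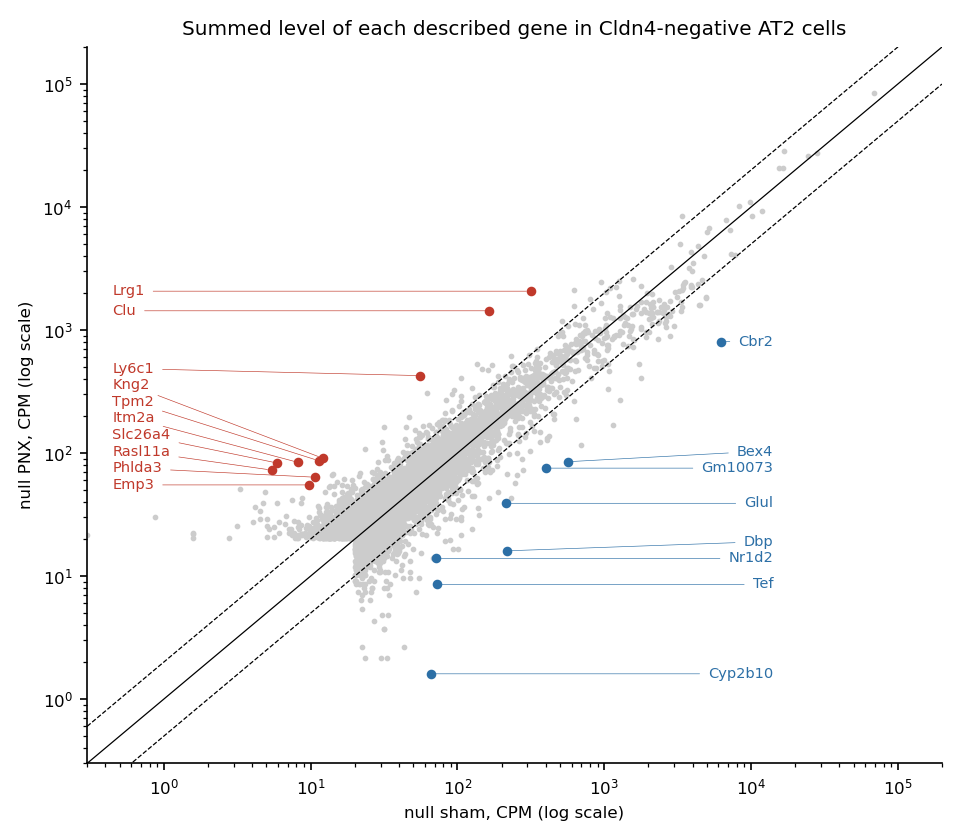
Level of each of 5420 described genes in null PNX (vertical axis) and null sham (horizontal axis) AT2 cells, in CPM on log scales, each point being 1 gene. The solid line marks equal levels and the dashed lines 2-fold differences; genes with high or low ratios that the text describes are labelled, from Slc26a4 at 82.9 and 5.94 CPM to Cyp2b10 at 1.60 and 66.2 CPM.

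The 12 genes with the highest ratios included Clu, Lrg1 and Kng2, whose products are secreted. Clu, a secreted chaperone at chr14:65968483-65981547 (mm10), had 1434 CPM in null PNX and 164 CPM in null sham, a ratio of 8.75 (95% interval 8.12–9.44). Transcripts of Clu were found in 87.8% of null PNX cells and in 27.9% of null sham cells. Lymphocytes in the same libraries, whose counts can include free RNA and RNA of doublets, had 408 CPM of Clu in null PNX and 7.53 CPM in null sham. Of the lymphocytes thinned to the same depth 62.7% had a Clu transcript in null PNX and 0% in null sham, so the share of AT2 cells with a transcript does not give the share that express Clu, and the part of free RNA in the AT2 values was not tested. In control mice Clu had 82.2 CPM after PNX and 62.9 CPM after sham. Lrg1, a secreted glycoprotein of the acute-phase response at chr17:56119678-56122001, had 2070 CPM in null PNX and 315 CPM in null sham, a ratio of 6.58 (6.22–6.96). Lymphocytes had 76.8 CPM of Lrg1 in null PNX and 52.7 CPM in null sham. Control PNX had 364 CPM of Lrg1 and control sham 186 CPM.

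Other genes with high ratios were scarce in null sham. Slc26a4, the anion exchanger pendrin, had 82.9 CPM in null PNX and 5.94 CPM in null sham (13.96, 9.58–20.9), with transcripts in 17.0% and 1.44% of cells. Slc26a4 had no count in the lymphocytes of these libraries. Rasl11a, a Ras-like GTPase, had 72.7 CPM in null PNX and 5.41 CPM in null sham. Control AT2 cells had more of it, with 83.3 CPM after PNX and 112 CPM after sham, so its low value was the one in null sham. Itm2a, a membrane protein, had 84.0 CPM in null PNX and 8.21 CPM in null sham, and Tpm2, a tropomyosin of actin filaments, had 86.6 and 11.4 CPM. Kng2, a kininogen, had 90.9 CPM in null PNX and 12.1 CPM in null sham but 0 CPM in control PNX and 1.09 CPM in control sham. Ly6c1 had 426 CPM in null PNX and 55.5 CPM in null sham; the Ly6 genes are close copies, and its reads may be shared among them. Emp3 also stood among the 12 highest, at 55.1 and 9.78 CPM, yet lymphocytes had 705 CPM of it in null PNX and 339 CPM in null sham.

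**Figure D2:**
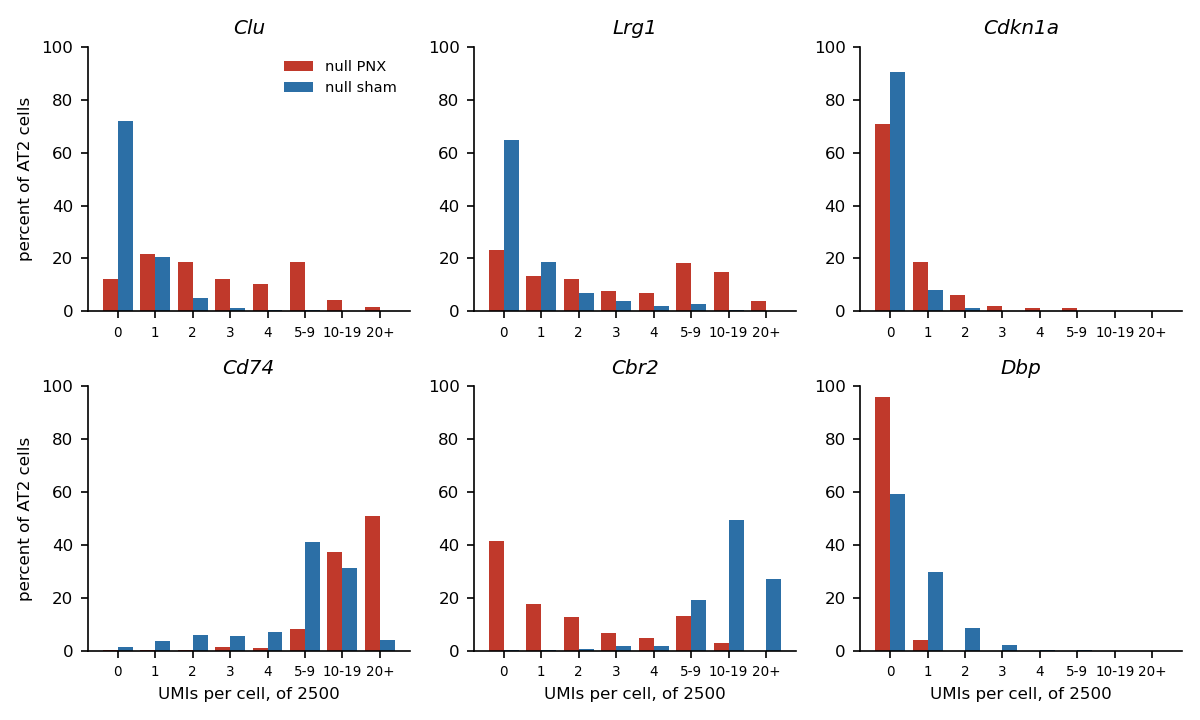
Share of AT2 cells (vertical axis, percent) by the number of transcripts of a gene among the 2500 kept per cell (horizontal axis), for 748 null PNX and 2290 null sham cells. Clu was at 0 in 12.2% of null PNX and 72.1% of null sham cells, whereas Cbr2 was at 0 in 41.6% of null PNX and 0.175% of null sham cells.

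None of the 14 described genes of the surfactant list was called, and their median log2 ratio was -0.03, against 0.19 for all described genes. Sftpb, which packs surfactant lipid, had 20708 CPM in null PNX and 16553 CPM in null sham (1.25, 1.24–1.27). Sftpa1, a collectin, had 27263 and 27938 CPM, a ratio of 0.976 (0.966–0.986). Sftpc chose the cells and had 84412 CPM in null PNX and 68892 CPM in null sham. Slc34a2, the phosphate transporter of the AT2 apical membrane, had 2557 CPM in null PNX and 4605 CPM in null sham, which is a ratio of 0.555 and short of the call.

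Among 33 described genes of AT2 identity, 6 were lower (18.2%) and 1 was higher (3.03%), beside 4.37% and 6.46% of all described genes. Cbr2, a carbonyl reductase at chr11:120729489-120732114, had the highest null sham level of the lower ones, with 806 CPM in null PNX and 6258 CPM in null sham, a ratio of 0.129 (0.122–0.136). Its null PNX level was below both control libraries, which had 3928 CPM after PNX and 4981 CPM after sham. The ratio was 0.0656 in cells with 2 to 5% of transcripts from Sftpc, 0.118 at 5 to 8% and 0.142 above 8%, so Cbr2 was lower in null PNX within every range of Sftpc. Lymphocytes had 48.0 CPM of Cbr2 in null PNX and 565 CPM in null sham. Bex4 had 85.0 CPM in null PNX, 565 CPM in null sham, 487 CPM in control PNX and 707 CPM in control sham. Fabp5, which carries fatty acids, had 1052 CPM in null PNX and 2623 CPM in null sham (0.401, 0.383–0.421). Etv5, the ETS factor that maintains AT2 cells downstream of FGF signalling, had 206 and 446 CPM (0.461, 0.413–0.513). In cells of 4000 to 10000 transcripts alone the log2 ratio of Fabp5 was -0.98 and that of Etv5 was -0.79, and neither reached the call. Fgfr2, the receptor for these FGFs, had 87.7 CPM in null PNX and 187 CPM in null sham. Chil1, a secreted chitinase-like protein, was the 1 higher member, at 530 and 136 CPM (3.90, 3.55–4.29).

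Of 19 described AT1 genes 3 were higher (15.8%) and 1 was lower (5.26%), beside 6.46% and 4.37% of all described genes. The median log2 ratio of the list was 0.16, against 0.19 for all described genes. Ager, the receptor for advanced glycation end products and an AT1 gene also present in AT2 cells, had 1181 CPM in null PNX and 514 CPM in null sham (2.30, 2.17–2.43). Control AT2 cells had 1447 CPM after PNX and 1306 CPM after sham, so the null sham value was the lowest of the 4. Hopx, a homeodomain-like factor of AT1 cells, had 18.7 and 14.7 CPM and stayed under the limit for description. Cyp2b10, a cytochrome P450 on this list, had 3 counts in null PNX, or 1.60 CPM, against 66.2 CPM in null sham, a ratio of 0.0242 (0.00498–0.0714). It went the other way in control mice, with 36.9 CPM after PNX and 13.6 CPM after sham.

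Cldn4 was absent from all of these cells. Of 25 described genes of the transitional state 10 were higher (40%, beside 6.46% of all described genes) and 0 were lower. Of the 25, 24 had a ratio above 1, and the median log2 ratio was 0.80. Areg, an EGF receptor ligand, had 306 CPM in null PNX and 62.0 CPM in null sham (4.94, 4.32–5.66). Hbegf, a ligand of the same receptor, had 54.0 and 13.4 CPM. Cdkn1a, the cell cycle inhibitor p21, had 198 CPM in null PNX and 46.6 CPM in null sham (4.24, 3.61–4.98). Anxa1, a membrane-binding annexin, had 482 and 147 CPM, and Sfn, an epithelial 14-3-3 protein, had 337 and 125 CPM. Lcn2, an iron-sequestering defence protein, had 2117 CPM in null PNX and 619 CPM in null sham (3.42, 3.27–3.58). The keratins that name the state were less changed. Krt8 had 1243 CPM in null PNX and 716 CPM in null sham (1.74, 1.65–1.83), and Krt18 had 1094 and 675 CPM (1.62, 1.54–1.71). Krt19 had 514 and 240 CPM, a ratio of 2.14 that fell under 2 with another random draw of transcripts.

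The null sham cells already stood above both control libraries for the keratins. Krt8 had 185 CPM in control PNX and 124 CPM in control sham, and Krt18 had 187 and 162 CPM. Summed over the transitional list, AT2 cells had a ratio of 1.81 (1.79–1.84), and the lymphocytes of the same libraries had one of 3.00 (2.60–3.46) from a lower level. The lymphocyte sums were 10843 CPM in null PNX and 3619 CPM in null sham, while the AT2 sums were 16328 and 9002 CPM. The 2 sets of lymphocytes also differed in a list of neutrophil markers, with 98.0 CPM in null PNX and 6071 CPM in null sham. Their ratios therefore do not measure free RNA alone. What share of the AT2 difference came from free RNA was not tested.

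Among genes with a ratio above 1 in null PNX, called or not, some had more CPM still in Cldn4-positive cells and others did not. The 492 Cldn4-positive null PNX cells, kept under the other conditions, had 2510 CPM of Krt8, 2649 CPM of Clu, 1238 CPM of Anxa1 and 667 CPM of Areg, all above the Cldn4-negative null PNX cells. Lrg1 had 1498 CPM in the positive cells and 2070 CPM in the negative ones, Lcn2 had 1540 and 2117 CPM, and Chil1 had 385 and 530 CPM. The same order appeared across the Cldn4 threshold. Cells with 0, 1, and 2 or more Cldn4 transcripts had 1243, 1552 and 3444 CPM of Krt8 and 2117, 1928 and 1161 CPM of Lcn2 in null PNX. Since Cldn4 chose the cells, these levels are a description. Sftpc had 84412, 78909 and 58381 CPM over the same 3 classes.

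**Figure D3:**
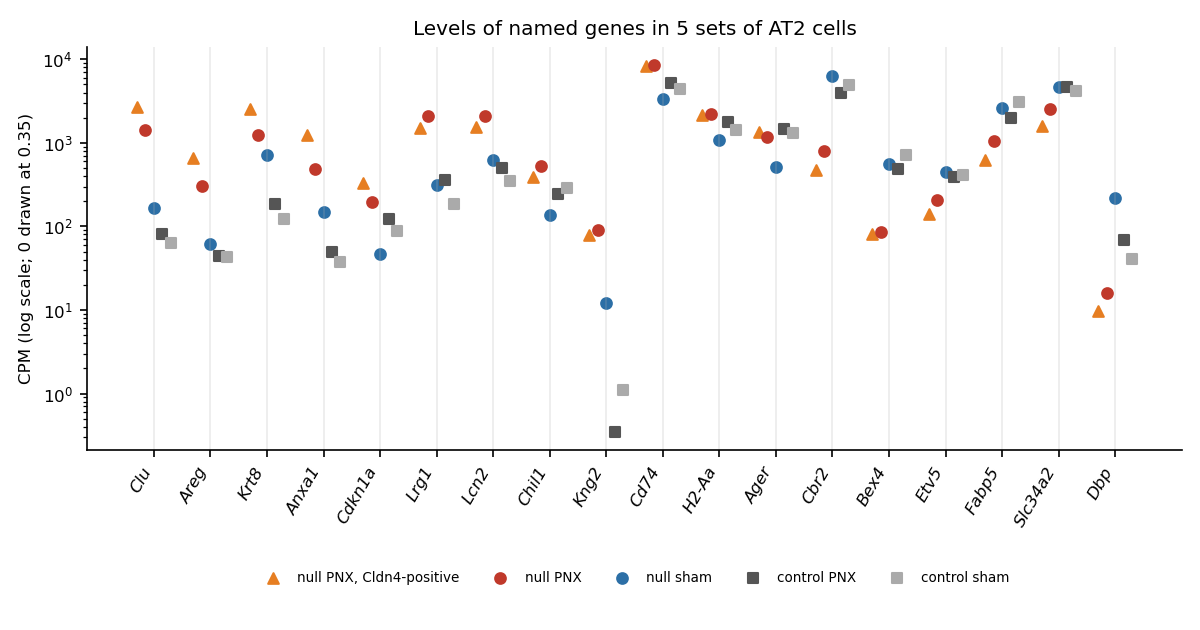
Level of 18 genes (CPM, log scale) in Cldn4-positive null PNX cells and in the Cldn4-negative AT2 cells of null PNX, null sham, control PNX and control sham, 1 library each. Clu and Krt8 are highest in the Cldn4-positive null PNX cells (2649 and 2510 CPM), whereas Lrg1 and Lcn2 are highest in the Cldn4-negative null PNX cells (2070 and 2117 CPM).

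Of 16 described p53 targets and cell-cycle inhibitors 5 were higher (31.25%, beside 6.46% of all described genes) and 0 were lower. The median log2 ratio was 0.80. Phlda3, a p53-induced inhibitor of Akt, had 63.6 CPM in null PNX and 10.7 CPM in null sham (5.97, 4.35–8.27). It was also higher in control mice, with 34.5 CPM after PNX and 13.1 CPM after sham. Ccng1, cyclin G1, had 77.5 and 35.1 CPM in the null pair and 59.7 and 27.8 CPM in the control pair, PNX before sham. Mki67 and Top2a had been set to 0, but of 13 other described cell cycle genes 6 were higher (46.2%, beside 6.46%) and 0 were lower. In cells of 4000 to 10000 transcripts alone 2 of these genes were higher, and 3 at an Sftpc share of at least 5%. Cdc20, a mitotic activator, had 25.7 CPM in null PNX and 3.14 CPM in null sham, and Cks2, a cyclin-dependent kinase subunit, had 48.1 and 12.6 CPM. Lymphocytes had more of both, with 81.6 and 18.8 CPM of Cdc20 and 130 and 60.3 CPM of Cks2. The summed ratios in lymphocytes were 1.57 (1.09–2.26) for the p53 list and 1.48 (1.21–1.80) for the cell cycle list, beside 1.69 and 1.53 in AT2 cells, and the part of free RNA was not tested.

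Early response genes varied by member. Of 23 described immediate-early genes 4 were higher (17.4%, beside 6.46% of all described genes) and 0 were lower. The median log2 ratio of the list was 0.34, against 0.19 for all described genes. Cyr61, a matrix protein and target of YAP, had 39.6 CPM in null PNX and 4.72 CPM in null sham (8.39, 5.33–13.6). The other 9 described genes of the YAP and TAZ list included 0 higher and 1 lower gene, Rbms3. That list had a median log2 ratio of 0.08, and it holds the genes of YAP and TAZ themselves, Yap1 and Wwtr1, beside targets. The call of Rbms3 ended with another random draw of transcripts (log2 ratio -0.81) and without thinning (-0.83). Atf3, a stress-induced repressor, had 66.8 and 13.97 CPM in the null pair (4.78, 3.58–6.42) and 12.8 and 34.9 CPM in the control pair, PNX before sham. In the control pair 9 of 22 described heat-shock genes were higher, beside 1.46% of all genes described there. In the null pair 1 of 18 was higher (5.56%, beside 6.46% of all described genes). It was Dnaja1, at 242 CPM in null PNX and 102 CPM in null sham. Of 14 genes around FGF receptor 2 and ERK feedback, 4 were higher (28.6%, beside 6.46%) and 3 were lower (21.4%, beside 4.37%). Phlda1, a gene induced by growth factors, had 518 and 171 CPM (3.02, 2.76–3.30), and Dusp6, a phosphatase that restrains ERK, had 56.1 and 24.1 CPM, while Fgfr2, Etv5 and Spred2 were the lower ones.

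The list of Cdc42 effectors, regulators and polarity partners held 0 higher and 1 lower gene of 31 described. The 1 lower gene was 3.23%, beside 4.37% of all described genes, and the median log2 ratio was 0.00. The lower gene was Dock9, an exchange factor for Cdc42, at 30.5 CPM in null PNX and 107 CPM in null sham (0.286, 0.214–0.376). Cdc42 itself (chr4:137319696-137357720) had 305 CPM in null PNX and 266 CPM in null sham (1.15, 1.04–1.26), and 222 and 167 CPM in control PNX and control sham. The counts are of tags at the 3′ end and no label names the floxed exon, so they do not show whether the gene was deleted. Tgfb1, the TGF-β ligand, had 39.6 and 34.4 CPM (1.15, 0.868–1.51). Of 14 described genes of that pathway 1 was higher (7.14%, beside 6.46% of all described genes). It was Id1, at 52.9 and 23.4 CPM, a call that ended when ratios were divided by the median ratio. Members under 20 CPM entered no count and went both ways. Itgb6, an integrin subunit, had 16.0 CPM in null PNX and 2.27 CPM in null sham (7.06, 3.58–14.8), and Smad6 had 4.81 and 8.73 CPM (0.551, 0.238–1.13). Of 17 matrix and integrin genes 4 were higher (23.5%, beside 6.46% of all described genes). Among them was Sparc, a matricellular protein, at 473 CPM in null PNX and 163 CPM in null sham. Sparc was higher in control mice too, at 336 CPM after PNX and 151 CPM after sham. Lamb3, a laminin chain of basement membrane, had 170 and 63.9 CPM in the null pair and 35.6 and 7.08 CPM in the control pair, PNX before sham.

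Of 8 described MHC class II genes 5 were higher (62.5%, beside 6.46% of all described genes) and 0 were lower. The median log2 ratio was 1.10. Cd74, the invariant chain, had 8471 CPM in null PNX and 3371 CPM in null sham (2.51, 2.46–2.57). The median cell had 20 transcripts of Cd74 in null PNX and 7 in null sham. H2-Ab1, the class II beta chain, had 1568 and 618 CPM, and H2-Aa, the alpha chain, had 2213 and 1090 CPM (2.03, 1.95–2.11). In cells of 4000 to 10000 transcripts alone the log2 ratio of H2-Aa was 0.88, short of the call. The peptide-loading genes H2-DMa and H2-DMb1 had 136 and 186 CPM in null PNX and 55.7 and 81.9 CPM in null sham. H2-Eb1 was low in both, at 23.5 and 15.5 CPM, and it had 26.4 CPM in control PNX and 411 CPM in control sham. In lymphocytes the summed class II ratio was 1.04 (0.896–1.20), from 6078 CPM in null PNX and 5869 CPM in null sham, beside 2.35 (2.31–2.39) in AT2 cells. The lymphocytes were chosen partly on the B cell genes Cd79a and Ms4a1, and B cells make class II themselves. Their ratio therefore does not measure free RNA for this list. The control pair had 5148 and 4431 CPM of Cd74, which places null sham lowest of the 4 libraries and null PNX highest.

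MHC class I genes had 4 higher (23.5%, beside 6.46% of all described genes) and 0 lower of 17 described. All 17 had a ratio above 1. H2-D1, a classical class I chain, had 2484 CPM in null PNX and 1252 CPM in null sham, while B2m, its partner, had 781 and 634 CPM. The H2-Q genes are near-identical copies, and the values of H2-Q4 at 69.0 and 26.9 CPM are uncertain for that reason. Psmb8, an immunoproteasome subunit, had 184 and 80.3 CPM (2.29, 1.99–2.64). Of 41 described proteasome genes, a list chosen after its values were seen, 13 were higher (31.7%, beside 6.46%) and 0 were lower. Of the 41, 40 had a ratio above 1. In cells of 4000 to 10000 transcripts alone 8 were higher. Psmc2, an ATPase of the proteasome cap, had 84.5 CPM in null PNX and 28.8 CPM in null sham (2.93, 2.34–3.67). The summed proteasome ratio was 1.78 (1.74–1.82) in AT2 cells and 1.66 (1.44–1.90) in lymphocytes of the same libraries, so lymphocytes differed in the same direction. Interferon-stimulated genes had 2 higher (20%) and 1 lower (10%) of 10 described, beside 6.46% and 4.37% of all described genes.

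**Figure D4:**
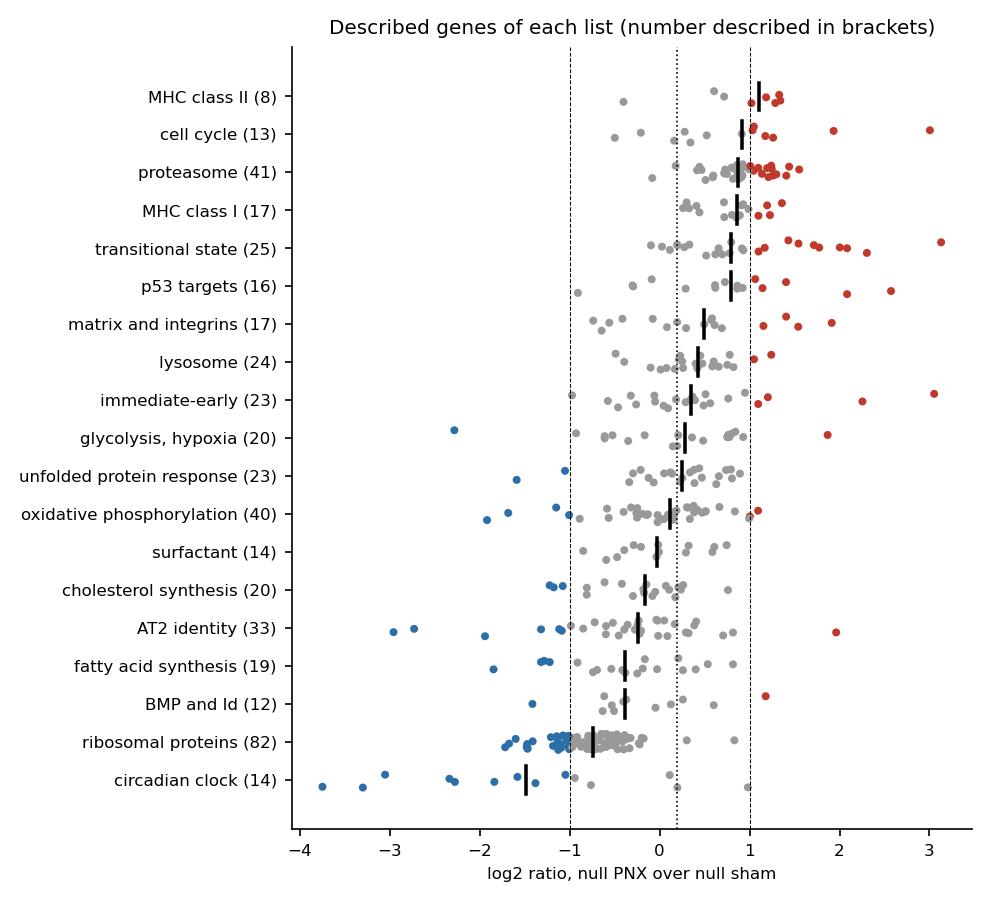
Log2 ratio of null PNX over null sham (horizontal axis) for each described gene of 19 lists, 1 row a list with the number described in brackets. Red points are at 1 or above and blue points at -1 or below; the thick bar is the list's median, from 1.10 for MHC class II to -1.48 for the circadian clock, and the dotted line is the median of all described genes at 0.19.

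Of 19 described genes of the fatty acid list 4 were lower (21.1%, beside 4.37% of all described genes) and 0 were higher. The median log2 ratio was -0.38. The 4 were the desaturase gene Scd2, the fatty acid-binding protein genes Fabp5 and Fabp12, and Lpin1, which encodes a phosphatidate phosphatase. Scd1, a desaturase, had 2099 CPM in null PNX and 3399 CPM in null sham (0.618, 0.597–0.639), and Scd2 had 265 and 619 CPM. Fasn, fatty acid synthase, had 572 and 584 CPM (0.980, 0.914–1.05), and Elovl1, an elongase, had 1475 and 838 CPM, a ratio of 1.76. In cells of 4000 to 10000 transcripts alone 1 of the 19 was lower. Scd1 went the other way in control mice, with 4309 CPM after PNX and 3332 CPM after sham. Of 20 genes of cholesterol synthesis 3 were lower (15%, beside 4.37%). Among them was Srebf2, the sterol-responsive factor, at 39.0 CPM in null PNX and 88.7 CPM in null sham.

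Single metabolic genes were lower in null PNX as well. Glul, glutamine synthetase, had 39.0 CPM in null PNX and 216 CPM in null sham (0.181, 0.141–0.229), with 125 CPM in control PNX and 108 CPM in control sham. Hk2, hexokinase 2, had 21.4 and 105 CPM (0.203, 0.144–0.280). It was the 1 lower gene of 20 described on the glycolysis list (5%, beside 4.37% of all described genes). The list also held 1 higher gene (5%, beside 6.46%), the enolase gene Eno1, at 162 CPM in null PNX and 44.4 CPM in null sham. The glycolysis list summed to a ratio of 1.49 (1.45–1.53) in AT2 cells and 1.47 (1.23–1.74) in lymphocytes. Klf15, a factor induced by glucocorticoids, had 3.74 CPM in null PNX and 31.6 CPM in null sham. Herpud1, a gene of protein quality control at the endoplasmic reticulum, had 122 and 367 CPM. Of the other 22 described genes of the unfolded protein response 0 were higher and 1, Crebrf, was lower. Herpud1 and Crebrf were 8.70% of the 23, beside 4.37% of all described genes. Scnn1a, the alpha subunit of the epithelial sodium channel, had 31.6 CPM in null PNX and 141 CPM in null sham. Of 24 described fluid transport genes Scnn1a was the 1 lower (4.17%) and 3 were higher (12.5%), beside 4.37% and 6.46% of all described genes. The higher ones were the pendrin gene above and the sodium pump modulators Fxyd3 and Fxyd4. The median log2 ratio of the list was 0.10, against 0.19 for all described genes. Fxyd3 had 36.4 and 4.19 CPM, and Fxyd4 had 39.0 and 8.56 CPM.

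Of 15 described secreted defence proteins 4 were higher, namely Lcn2, Lrg1, Chil1 and Retnla, and 1 was lower. These were 26.7% and 6.67%, beside 6.46% and 4.37% of all described genes. The lower gene was Scgb1a1, the club cell secretoglobin, at 1818 CPM in null PNX and 4948 CPM in null sham. It was lower in control mice too, at 937 CPM after PNX and 3697 CPM after sham (0.253, 0.245–0.262). A single cell held 19.1% of the Scgb1a1 counts in null PNX, and lymphocytes had 907 CPM in null PNX and 1077 CPM in null sham. Lyz2, lysozyme, had 26135 and 24609 CPM (1.06, 1.05–1.07).

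The circadian clock list held only lower genes among those called. The clock is a feedback loop in which the activators Arntl and Clock, with Npas2, bind E-box sequences and switch on the Per, Cry and Nr1d genes, whose proteins then repress the activators. Dbp, Tef and Hlf bind D-box sequences and carry the rhythm to other genes, and Nfil3 represses the same sites. Sequences are shown for 4 promoters of genes that were low in null PNX and that hold such a site, with the E-box CACGTG or the D-box TTATGTAA or TTATGCAA in capitals. They are RefSeq sequences of the build GRCm38.p6, from 250 bases before to 50 after the start, read 5′ to 3′ along the gene.
Ciart, chr3:95882179-95882478, minus strand: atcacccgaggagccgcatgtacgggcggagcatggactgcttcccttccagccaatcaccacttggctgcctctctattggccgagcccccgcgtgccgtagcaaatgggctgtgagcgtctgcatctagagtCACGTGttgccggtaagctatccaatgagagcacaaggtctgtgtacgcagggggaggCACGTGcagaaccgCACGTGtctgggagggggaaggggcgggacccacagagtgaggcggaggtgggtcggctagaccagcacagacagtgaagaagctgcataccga
Per1, chr11:69098699-69098998, plus strand: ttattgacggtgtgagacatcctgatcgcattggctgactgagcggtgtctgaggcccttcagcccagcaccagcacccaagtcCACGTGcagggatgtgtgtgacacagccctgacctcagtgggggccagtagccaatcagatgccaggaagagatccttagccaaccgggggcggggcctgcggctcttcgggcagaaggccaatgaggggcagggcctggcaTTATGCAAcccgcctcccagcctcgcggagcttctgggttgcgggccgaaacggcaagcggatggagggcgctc
Per3, chr4:151044616-151044915, minus strand: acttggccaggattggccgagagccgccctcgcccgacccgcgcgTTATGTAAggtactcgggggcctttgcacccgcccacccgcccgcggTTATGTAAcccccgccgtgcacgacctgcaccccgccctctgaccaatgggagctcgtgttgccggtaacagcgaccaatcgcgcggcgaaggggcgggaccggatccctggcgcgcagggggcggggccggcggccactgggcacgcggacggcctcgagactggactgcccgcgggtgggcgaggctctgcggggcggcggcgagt
Tef, chr15:81802423-81802722, plus strand: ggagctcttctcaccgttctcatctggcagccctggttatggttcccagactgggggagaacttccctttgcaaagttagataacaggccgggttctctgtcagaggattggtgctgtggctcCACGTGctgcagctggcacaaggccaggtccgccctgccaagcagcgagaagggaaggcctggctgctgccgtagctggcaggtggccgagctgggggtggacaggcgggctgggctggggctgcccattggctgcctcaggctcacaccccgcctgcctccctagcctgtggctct

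Of 23 clock genes 18 had a promoter in the table, with 26 promoters in all. Counting both strands, an E-box was found in 6 of the 26 (23.1%) and in 7.15% of all 32851 promoters of the same length. A D-box was found in 2 of the 26 (7.69%) and in 1.66% of all promoters. Some genes had more than 1 promoter, and those of Arntl, for example, overlap, so the 26 are not separate sequences. The motifs do not overlap each other in the windows shown, and a match is a string of letters and not a shown binding site. The windows of Dbp, Nr1d1, Nr1d2, Cry2 and Rora, which were also lower, held no match. Per2, also lower, had no promoter among the 26. Another window of Per1 held no match, and another window of Tef held an E-box that is not shown. Bhlhe41 and Cry1, which were not among the lower genes, each had an E-box.

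Of 14 described clock genes 9 were lower (64.3%, beside 4.37% of all described genes) and 0 were higher in null PNX. The median log2 ratio was -1.48. Dbp (chr7:45705088-45710203) had 16.0 CPM in null PNX and 219 CPM in null sham, a ratio of 0.0733 (0.0492–0.105). It was detected in 4.01% of null PNX cells and 40.6% of null sham cells. Tef had 8.56 and 73.0 CPM, and the repressors Per1, Per2 and Per3 had 15.5, 2.14 and 13.9 CPM in null PNX against 56.2, 23.6 and 68.5 CPM in null sham. The nuclear receptors Nr1d1 and Nr1d2, which repress Arntl, had 24.6 and 13.9 CPM in null PNX against 74.2 and 71.4 CPM in null sham. The remaining 2 lower genes were Rora, an activator of Arntl, at 21.9 and 57.6 CPM, and Cry2, a repressor, at 15.5 and 32.5 CPM. The ratio of Cry2 was 0.477 (0.311–0.709) and went above 0.5 in several alternative settings.

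Genes at the opposite phase of the loop were scarce and lay on the other side. Arntl had 8.02 CPM in null PNX and 0.699 CPM in null sham, Nfil3 had 15.5 and 2.45 CPM, and Npas2 had 6 counts in null PNX and 0 in null sham. These 3 genes were under 20 CPM in both libraries and entered no count. Clock had 28.9 and 14.7 CPM (1.97, 1.37–2.80). Ciart, a repressor of the loop, had 1.07 CPM in null PNX and 17.5 CPM in null sham.

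In control mice the clock genes did not follow the null pair. Nr1d1 had 120 CPM in control PNX and 17.4 CPM in control sham (6.91, 5.32–9.10), and Nr1d2 had 55.9 and 21.5 CPM, both opposite to the null pair. Dbp had 68.7 CPM in control PNX and 40.6 CPM in control sham. Arntl had 5.41 CPM in control PNX and 20.2 CPM in control sham, which is again the other direction from the null pair. Summed over the list, null PNX had 0.390 of the null sham level in AT2 cells (0.360–0.421), and the lymphocytes of the same libraries had a ratio of 1.42 (0.848–2.36) from 31 and 36 counts. No label states the hour at which each library was collected, and its part in these values was not tested.

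Ribosomal protein genes made up 10.9% of the counts in null PNX and 18.9% in null sham. The list of all such genes by symbol, chosen after their values were seen, had 0 higher and 21 lower of 82 described. The lower ones were 25.6%, beside 4.37% of all described genes. Of the 82, 80 had a ratio below 1, and the median log2 ratio was -0.74. Rps21 had 528 CPM in null PNX and 1737 CPM in null sham, Rps28 had 887 and 2827 CPM, and Rps29 had 1606 and 4470 CPM. The control pair had 4525 and 4563 CPM of Rps29, close to null sham. All 10 described ribosomal pseudogenes were lower too. They are near-identical to their parent genes, so their counts, and those of Gm10073, are uncertain.

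The ribosomal difference was also present in lymphocytes, whose summed ratio was 0.674 (0.661–0.688), beside 0.579 (0.576–0.581) in AT2 cells. Across the 82 genes the log2 ratios in AT2 cells and lymphocytes had Pearson r = 0.81 and Spearman rho = 0.78, as a description over genes that share libraries and depth. Rps29 had a log2 ratio of -1.48 in AT2 cells and -1.41 in lymphocytes, and Rps12 one of -1.47 in AT2 cells and -0.16 in lymphocytes. With ribosomal genes taken out of the totals, 239 genes were higher and 316 lower in AT2 cells. The part of library preparation in this difference was not tested.

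**Figure D5:**
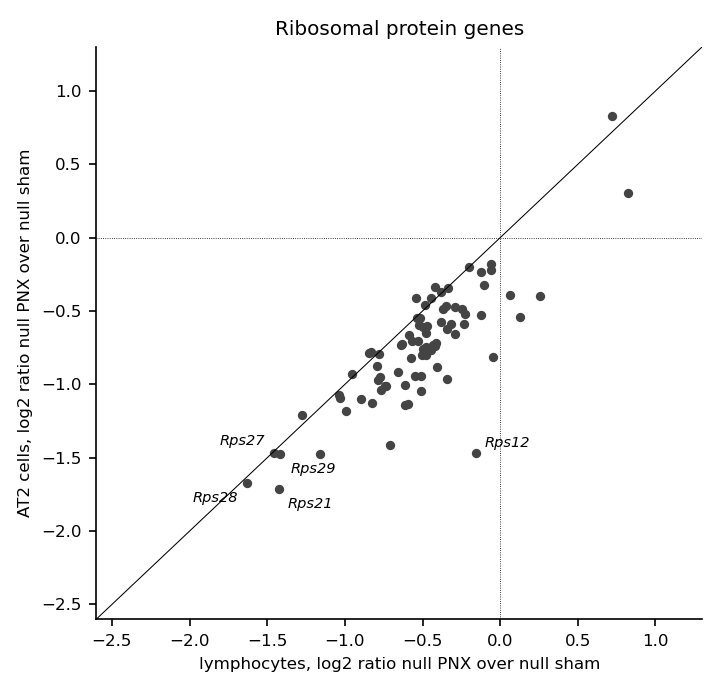
Log2 ratio of null PNX over null sham for 82 ribosomal protein genes in AT2 cells (vertical axis) and in the lymphocytes of the same 2 libraries (horizontal axis), each point being 1 gene and the line marking equal ratios. Rpl29, at -1.60 in AT2 cells and -2.87 in lymphocytes, lies outside the drawn range. The medians over all 82 genes are -0.74 in AT2 cells and -0.50 in lymphocytes.

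Genes higher in null PNX and lower in control PNX numbered 2, Atf3 and Psca, which is 0.571% of the null list and 5.26% of the control list. Genes lower in null PNX and higher in control PNX numbered 7, which is 2.95% of the null list and 9.86% of the control list. Of all described genes 6.46% were higher and 4.37% were lower in null PNX, and no test was made of these overlaps. Over 4630 genes described in both pairs, which share no library, the log2 ratios had Pearson r = 0.06 and Spearman rho = 0.02, as a description across genes. Phlda3, Hbegf, Tnfrsf12a, Sparc, Lamb3 and Ccng1 were among the 11 genes higher in both genotypes.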

How the data were processed

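Single-cell RNA sequencing (10x Genomics 3′ protocol, per the labels) of sorted GFP+ cells gave 4 libraries, 1 per group. The authors deposited whole-number counts of unique molecular identifiers (transcripts in the text) per gene and cell, not normalized, in a table of 17117 genes and 10077 cells, each gene detected in at least 3 cells. The submitters' processing notes name Cell Ranger 2.1.0, Seurat 2.3.4 and mm10. No source used here states the annotation, the chemistry or any removal of doublets. No doublet caller was run, so doublets remain apart from those the 0-transcript conditions remove. Libraries were taken from barcode endings as the labels state, and 0 cells lacked one.

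Cells were kept by the conditions in the report, thinned without replacement to 2500 counts (193 shallower null sham cells and 0 null PNX cells were left out), summed per library and scaled to CPM. Ratios have exact 95% binomial intervals, log2 ratios have 0.5 counts added, and Python 3.11.15, numpy 2.4.6, scipy 1.17.1 and pandas 2.3.3 were used. No p-value was computed, since cells are not replicates. The script was tested on simulated data.

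Named genes were the 12 highest and 12 lowest ratios with at least 50 CPM in the higher library and under 20% of counts in 1 cell, ribosomal and mitochondrial genes aside; of each of 42 lists the 4 most abundant and 3 most different described members; and a set of genes such as Cdc42 and Krt8 whatever their values. Some genes that the rule picks are not reported here. Other genes named in the text were chosen after their values were seen. The members and lists were chosen with earlier results of these data known, and the proteasome, ribosomal family and pseudogene lists were chosen after their values were seen. Coordinates are from GENCODE M21 on mm10. Background was read in lymphocytes (Ptprc and at least 2 counts of Cd3e, Cd3d, Cd79a or Ms4a1, no Epcam, Sftpc under 2%), 51 in null PNX and 84 in null sham. The 2 sets were not alike. A list of neutrophil markers had 98.0 CPM in null PNX and 6071 CPM in null sham lymphocytes, while null sham AT2 cells had 460 CPM. This limits every lymphocyte ratio given here, and its source was not tested. Their levels use all counts and their ratios 1000 counts per cell.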

Additional observations from a re-analysis of the deposited data

Results flagged for a closer look

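Of the genes picked by the naming rule, 4 reached a 2-fold ratio in both genotypes and in opposite directions, with 1 library a group, and the difference between genotypes was not tested. Other named genes had opposite directions with a ratio short of 2-fold in one genotype. Atf3 had a log2 ratio of PNX over sham of 2.255 in null mice and -1.435 in control mice. Cyp2b10 had -5.146 in null mice and 1.429 in control mice, from 3 counts in null PNX. Nr1d1 had -1.58 in null mice and 2.779 in control mice, and Nr1d2 had -2.336 in null mice and 1.369 in control mice.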

How the results depend on the processing

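Against 350 higher and 237 lower genes, 4 alternatives moved both counts by over 1.5 times. They were 167 and 129 at a minimum of 50 CPM, 820 and 505 at a minimum of 5 CPM, 204 and 362 with ratios divided by the median ratio, and 1307 and 556 when Sprr1a, Krt19, Itgb6 and Sfn also had to be 0, a condition that left 25 null PNX cells. With those 25 cells the sign turned for 6 of the named genes called, Fgfbp1 (log2 ratio 0.0754, against -2.48), Id1 (-1.75, against 1.18), Ly6a (-0.99, against 1.43), Cks1b (-0.79, against 1.26), Zmat3 (-0.30, against 1.41) and Rora (0.16, against -1.38), and Atf3 was at 0.03, against 2.25. Other settings gave 239 to 461 higher and 197 to 316 lower genes, among them totals without ribosomal genes (239 and 316, or 43.1% higher against 59.6%, chosen after seeing the data) and no condition on Cldn4 (461 and 243). Calls near the limits depended on the random draw, since another seed shared 242 of the 350 higher and 185 of the 237 lower genes. Of the 24 genes with the highest and lowest ratios, 22 kept a 2-fold ratio in every alternative, the exceptions being Fgfbp1 and Nr1d2 with 25 null PNX cells. Of 122 named genes called, 74 kept a 2-fold ratio in every alternative. With ratios divided by the median ratio 3 MHC class II, 3 p53 and 3 cell cycle genes were higher, against 5, 5 and 6, and without thinning 2 MHC class I genes were higher, against 4. Depth limits genes under a few CPM, with 1.60 CPM for 3 counts in null PNX. No paired analysis was possible because each group is 1 library.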
